A study of Mus musculus with 6 samples.

Results

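The feedback genes of the ERK MAP kinase pathway were read in basal epithelial cells sorted from mouse mammary glands, with and without vimentin. The members are the phosphatase genes Dusp4, Dusp5 and Dusp6, the Sprouty genes Spry1, Spry2 and Spry4, the Spred genes Spred1 and Spred2, and the ETS transcription factor genes Etv4 and Etv5. They were taken by gene symbol, without regard to their values, and all 10 were found among the 23337 genes of the count files. Wild-type mice (Vimwt/wt) gave 2 libraries and mice homozygous for a Vim knockout allele (Vimtm1Cba/tm1Cba) gave 4. All mice were 15 weeks old on a mixed 129/Sv X C57BL/6 strain background, and a library came from the pooled cells of 2 to 3 mice. The cells were taken from collagenase-digested glands, collected as live cells without CD45 and CD31 and with low CD24 and high CD49f, and lysed without culture. The labels name no promoter or recombinase that would limit the Vim allele to basal cells.

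ERK is the last kinase of a cascade that runs from growth factor receptors through RAS, RAF and MEK. Active ERK induces genes whose products switch the cascade off again: DUSP phosphatases remove phosphate from ERK itself, and Sprouty and SPRED proteins hold back the step from receptor to RAF. Etv4 and Etv5 are induced as well, and their products carry the signal into transcription. The messenger RNAs of these genes are therefore often used to read ERK output, and in the mammary gland EGF family and FGF signals that use this cascade take part in branching of the ducts. Phosphorylated ERK was not measured here, and mRNA levels alone are described.

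Libraries held between 25347967 and 31200622 counts, and Pearson correlations of log2 CPM (read counts brought to a common library size, with TMM scaling) between them ran from 0.97 to 0.989 across genes. Vim was at 215 and 241 CPM in wild type 1 and 2 and between 92.4 and 111 CPM in the knockout libraries, a log2 fold change of -1.12 (edgeR adjusted p = 0.019), so Vim fell in the libraries labelled knockout. Of the 7 basal markers 0 were called by genotype or with the block: Krt14 was at 100% of its wild-type mean in the knockout, Trp63 at 94.7%, Myh11 at 91.1%, Itga6 at 88%, Acta2 at 84.8%, Krt5 at 84.4% and Oxtr at 129%. Their median log2 fold change was -0.13, with 5 of 7 below 0. Each experiment, read from a day code, holds 3 libraries: experiment 1 wild type 1 with knockout 1 and 2, experiment 2 the others. It is used below as a technical batch. The 10 endothelial markers fixed for the check of the gate summed to 156 and 49.8 CPM in wild type 1 and 2 and to between 22.2 and 35.3 CPM in the 4 knockout libraries. All 10 of them had negative log2 fold changes in the knockout, Pecam1 among them (21.2 ± 12.9 CPM in wild type and 5.43 ± 1.8 in knockout, SD, n = 2 and 4), and none was at 0 in every library.

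Among the feedback genes the genotypes did not move one way. Dusp5 stood higher in the knockout, at 193% of its wild-type mean, while Dusp6 stood at 77.7%, Etv5 at 74.9% and Etv4 at 68.3%, and the other 6 lay between 84.7% and 116%. By edgeR with genotype as the only term, 0 of the 10 members were called at an adjusted p under 0.05, where 0.079% of the 13925 genes tested were called. At an unadjusted p under 0.05 there were 3 members (Dusp5 higher, Dusp6 and Etv5 lower), against a background of 8.57% of all genes. With the experiment as a replicate block 1 member was called, Dusp5, which rose, against 1.56% of all genes, and 4 had an unadjusted p under 0.05 (Dusp5, Dusp6, Etv4 and Etv5), against 13.6%. DESeq2 also called Dusp5 and no other member, where it called 265 genes or 1.88% of those it tested, and limma-voom called 0 members and 0.0718% of all genes. Of the 10 log2 fold changes 3 were above 0 and 7 below, with a median of -0.13 beside -0.01 for all genes tested.

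**Figure D1:**
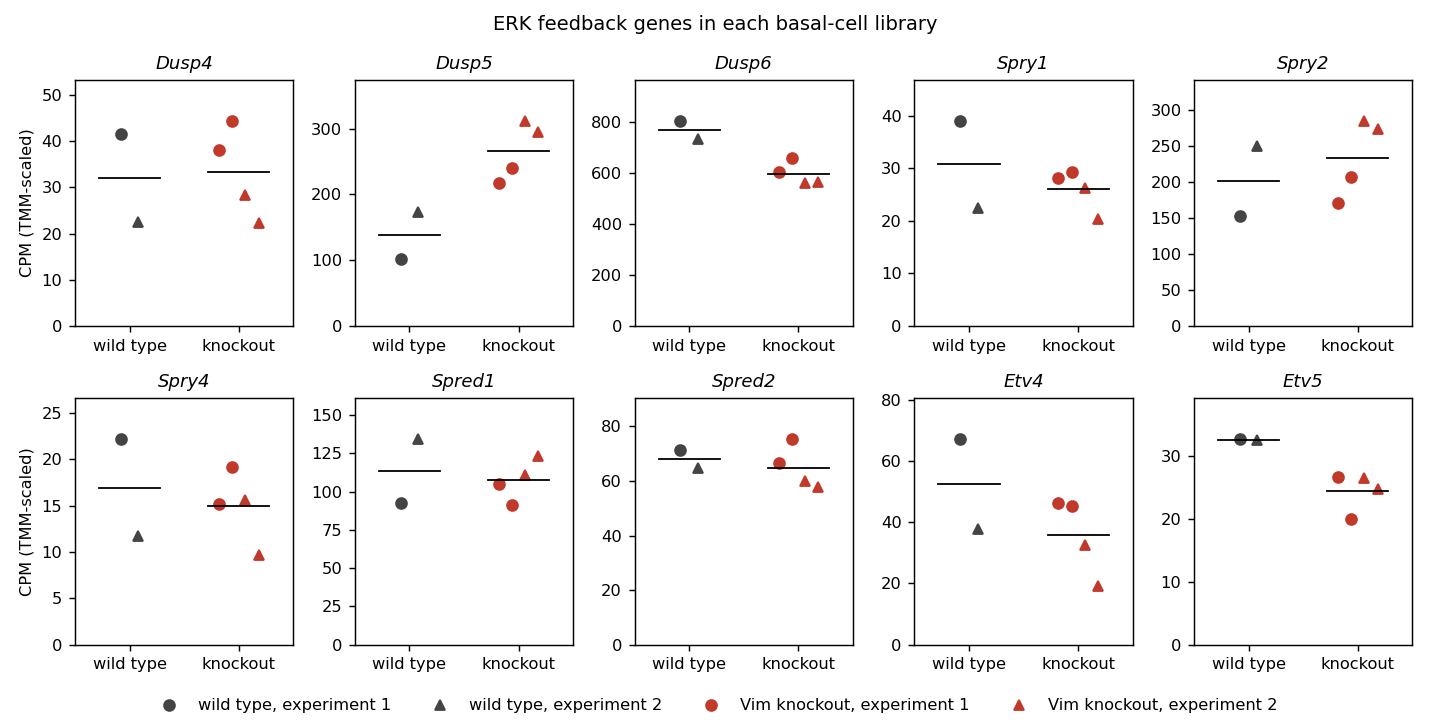
Level of each of the 10 genes in TMM-scaled CPM, with wild-type libraries in grey, Vim knockout libraries in red, circles for experiment 1, triangles for experiment 2 and lines at the group means. The genotypes are apart for Dusp5 (101 to 174 CPM in wild type and 218 to 312 in knockout), Dusp6 and Etv5, and overlap for the other 7 genes.

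The knockout libraries lay all above or all below both wild-type libraries for 3 members, and 16.2% of all genes showed the same. Dusp5 was the 1 member with every knockout library above (7.6% of all genes), and Dusp6 and Etv5 were the 2 with every knockout library below (8.57% of all genes). The share among the members rests on so few genes that it is not read as a property of the group.

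Dusp5 encodes a nuclear phosphatase that acts on ERK and keeps it in the nucleus. Its level was 101 and 174 CPM in wild type 1 and 2 and 218, 240, 312 and 294 CPM in knockout 1 to 4. The groups did not overlap, and in both experiments the knockout libraries were above their own wild-type library. The wild-type mean was 138 ± 51.4 CPM (SD, n = 2) and the knockout mean 266 ± 44.2 CPM (SD, n = 4). The log2 fold change was 0.95 (SE 0.24 by edgeR, adjusted p = 0.269). With the replicate block the log2 fold change was 0.98 (SE 0.12, adjusted p = 0.00461), and by DESeq2 the adjusted p was 0.0105. Within experiment 1 the log2 difference was 1.18 and within experiment 2 it was 0.80. Without wild type 1, the lowest library, the call with the block was lost (log2 fold change 0.82, adjusted p = 0.147), and it was kept without any 1 of the other 5 libraries (adjusted p from 0.00067 to 0.03). The smallest log2 fold change by genotype alone was 0.63, also without wild type 1.

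The gene lies at chr19:53529318-53541322 (mm10, plus strand) in the annotation used for counting. Of the 1155 bases of that gene model 1152 are coding in GENCODE M21, so its counts leave out reads from the untranslated parts of the transcript. Upstream of its RefSeq start the 250-base window holds 2 CArG boxes side by side, the binding motif of serum response factor, with which ERK-activated ETS factors act at many immediate early genes. The stretch is shown because Dusp5 was the called member, with the pair of boxes in capitals (GRCm38.p6, chr19:53529058-53529087, plus strand, from RefSeq promoter sequences). The boxes begin 82 and 72 bases before the start.

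Dusp5: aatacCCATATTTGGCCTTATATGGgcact

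A CArG box was found in 1.47% of the 32851 RefSeq windows of this length, and 2 or more in 0.0183%, which is 6 windows. GENCODE M21 exons cover all 250 bases of the Dusp5 window, and their strand was not recorded. Letters that match a motif describe the sequence and were not tested for binding.

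Dusp6 encodes the cytoplasmic phosphatase that is specific for ERK and is widely used as a transcript of ERK output. Its level was 806 and 734 CPM in wild type 1 and 2 and 604, 662, 563 and 566 CPM in knockout 1 to 4. Every knockout library was lower than both wild-type libraries. The means were 770 ± 50.8 CPM (SD, n = 2) and 598 ± 45.9 CPM (SD, n = 4). The log2 fold change was -0.36 (SE 0.12, 95% interval -0.65 to -0.08 without adjustment, edgeR adjusted p = 0.432). Within the experiments the log2 differences were nearly equal, at -0.35 and -0.38, and the block did not bring a call (adjusted p = 0.114). Leaving out any 1 library moved the log2 fold change between -0.43 and -0.28. Dusp6 spans chr10:99263231-99267489.

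Dusp4, which encodes a nuclear phosphatase for ERK and JNK, was at 41.6 and 22.6 CPM in wild type and at 38.1, 44.4, 28.4 and 22.3 CPM in knockout. The values followed the experiment, not the genotype: the 3 libraries of experiment 1 were all above the 3 of experiment 2. The log2 fold change between genotypes was 0.05 (95% interval -0.67 to 0.78, edgeR adjusted p = 0.995). With the block the interval was -0.22 to 0.37. The sign of this value was negative in experiment 1 (-0.02) and positive in experiment 2 (0.16).

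Because Dusp5 and Dusp6 went apart, their ratio was also taken within each library, where the scaling between libraries has no part. Dusp5 per exon length was 0.304 and 0.574 of Dusp6 in wild type 1 and 2, then 0.875, 0.88, 1.34 and 1.26 in knockout 1 to 4. In wild type Dusp6 led in both libraries, and in experiment 2 of the knockout Dusp5 led. This ratio was chosen after the values were seen and was not tested.

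Etv5 encodes an ETS factor of the PEA3 group. It was at 32.6 and 32.5 CPM in wild type and at 26.7, 19.9, 26.4 and 24.7 CPM in knockout. The wild-type libraries were almost equal and all 4 knockout libraries were under them, knockout 2 farthest. The log2 fold change was -0.42 (SE 0.15, 95% interval -0.75 to -0.08 without adjustment, edgeR adjusted p = 0.462), and -0.50 and -0.35 within the experiments. With the block the edgeR adjusted p was 0.185, or 0.0385 when knockout 1 was left out. That last fit called 940 genes, where the block fit with all libraries called 217.

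RefSeq gives Etv5 (chr16:22381313-22439570, minus strand) a pair of starts, and the window before the inner start is shown for a motif it repeats. Capicua, a repressor that ERK inactivates and that is known to act on Etv4 and Etv5, binds an octamer that begins TGAATG. The letters TGAATGG occur 3 times in these 250 bases, on both strands, beginning 242, 198 and 130 bases before the start (GRCm38.p6, chr16:22438369-22438618, printed along the minus strand, with the matches in capitals).

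Etv5, inner start: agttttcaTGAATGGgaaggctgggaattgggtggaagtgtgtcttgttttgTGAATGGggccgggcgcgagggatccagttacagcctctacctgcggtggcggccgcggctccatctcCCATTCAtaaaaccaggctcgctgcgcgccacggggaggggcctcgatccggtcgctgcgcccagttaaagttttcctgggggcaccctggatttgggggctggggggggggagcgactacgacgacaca

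No GENCODE M21 exon overlaps this window. TGAATGG occurs at least once in 2.98% of the 32851 windows and 3 times in 1 of them, this one. The 7 letters were chosen after the window had been read, so their count there is a description. The octamer itself, sought as TGAATGNA, matched 3.2% of all windows and none of the 8 windows found for 7 members. The motifs CCGGAAG (ETS, 6.91% of all windows), TGANTCA (AP-1, 6.75%) and TGACGTCA (CRE, 1.55%), each sought on both strands, also had no match in those 8 windows. Windows were found for Dusp5, Dusp6, Spry1, Spry2, Spred1, Spred2 and Etv5, and not for Dusp4, Spry4 and Etv4.

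Etv4, of the same PEA3 group, was at 67.0 and 37.7 CPM in wild type and at 46.2, 45.2, 32.5 and 19.1 CPM in knockout. The genotypes overlapped, since knockout 1 and 2 were above wild type 2, but in each experiment both knockout libraries were below the wild-type library of that experiment. The log2 fold change was -0.55 (SE 0.35 by edgeR, 95% interval -1.36 to 0.26, adjusted p = 0.784) by genotype alone and -0.55 (SE 0.18, adjusted p = 0.198) with the block, with -0.55 and -0.59 within the experiments. Without wild type 1 the value was -0.06 by genotype alone and -0.525 with the block. With the block Etv4 was called only without knockout 3 (edgeR adjusted p = 0.0408). Etv4 spans chr11:101769742-101785310 on the minus strand.

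Sprouty proteins are induced antagonists of receptor signalling. Spry2 was the most abundant of the 3, at 152 and 250 CPM in wild type and 170, 207, 284 and 272 CPM in knockout. Within each experiment the knockout libraries were above wild type, by a log2 difference of 0.30 and 0.15, and across experiments the genotypes overlapped. Its log2 fold change was 0.21 (95% interval -0.38 to 0.81, edgeR adjusted p = 0.933), and with the block 0.23 (-0.02 to 0.48, adjusted p = 0.407).

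Spry1 was at 39.1 and 22.4 CPM in wild type and 28.3, 29.4, 26.2 and 20.3 CPM in knockout. Wild type 1 was the highest library and the others ran from 20.3 to 29.4 CPM, with those of experiment 1 above those of experiment 2. The Spry1 log2 fold change was -0.24 (95% interval -0.78 to 0.29, edgeR adjusted p = 0.909). Its log2 difference was -0.44 in experiment 1 and 0.04 in experiment 2. Spry4 was at 22.2 and 11.7 CPM in wild type and 15.2, 19.2, 15.7 and 9.68 CPM in knockout, with wild type 1 highest, knockout 2 next and the genotypes overlapping. Its log2 fold change was -0.19 (95% interval -0.90 to 0.53, edgeR adjusted p = 0.958), with -0.38 and 0.07 within the experiments. Without wild type 1 both signs turned, to 0.23 for Spry1 and 0.37 for Spry4. The 3 genes lie on chromosomes 14 (Spry2, 105891947 to 105896819), 3 (Spry1, 37639950 to 37644599) and 18 (Spry4, 38586265 to 38601268).

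SPRED proteins are related to Sprouty and bring neurofibromin to RAS at the membrane. Spred1 was at 92.3 and 134 CPM in wild type and 105, 91.1, 111 and 123 CPM in knockout, and Spred2 at 71.4 and 64.7 CPM in wild type and 66.6, 75.3, 59.9 and 57.9 CPM in knockout. The genotypes overlapped for both genes; for Spred1 wild type 2 was above every knockout library and knockout 2 below both wild-type libraries. Their log2 fold changes were -0.08 (95% interval -0.47 to 0.32) and -0.07 (95% interval -0.37 to 0.24), with edgeR adjusted p = 0.966 and 0.962. With the block the intervals were -0.305 to 0.187 for Spred1 and -0.29 to 0.15 for Spred2. Spred1 spans chr2:117121450-117179336 and Spred2 chr11:19924442-20022597.

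**Figure D2:**
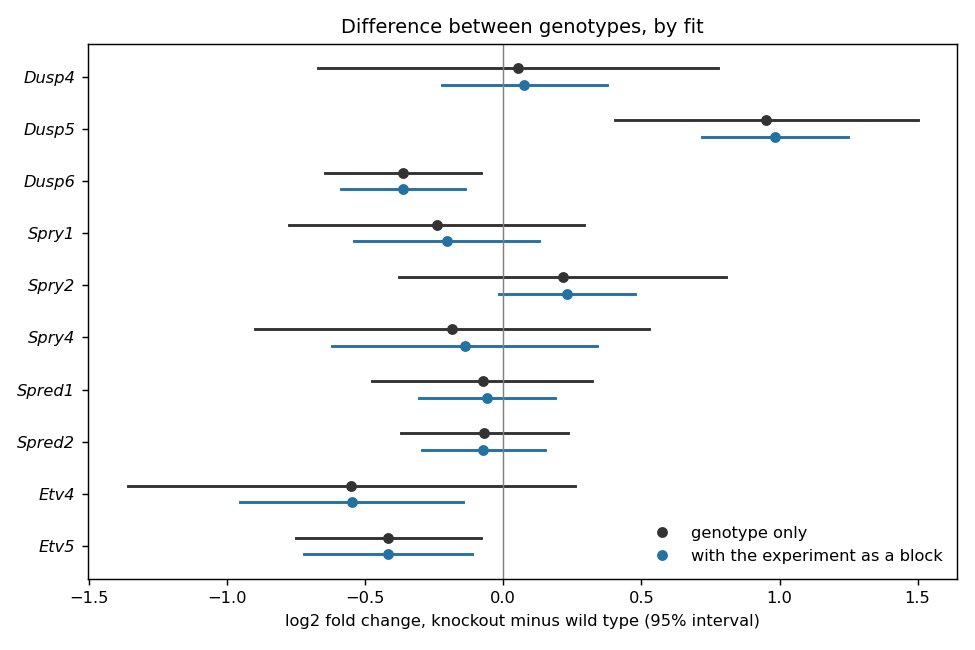
Log2 fold change (knockout minus wild type) with its unadjusted 95% interval for each gene, in the fit by genotype alone (black) and with the experiment as a replicate block (blue). Dusp5 is at 0.95 and 0.98, Dusp6, Etv4 and Etv5 lie between -0.55 and -0.36 in both fits, and the intervals of Spry1, Spry2, Spry4, Spred1, Spred2 and Dusp4 include 0 in both fits. The interval of Etv4 includes 0 by genotype alone (-1.36 to 0.26) and lies below 0 with the block (-0.95 to -0.14).

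Several of these genes differed between the experiments, as read from the day code in the file names. In the fit with both terms 4 members differed between experiments by edgeR, where 6.43% of all genes did: Dusp4 fell by 0.76 in log2 units from experiment 1 to 2 (SE 0.13, adjusted p = 0.0103) and Etv4 fell by 0.82 (SE 0.17, adjusted p = 0.0273), while Spry2 rose by 0.61 (SE 0.10, adjusted p = 0.0109) and Dusp5 rose by 0.53 (SE 0.11, adjusted p = 0.0205). For Dusp4, Etv4 and Spry2 the 3 libraries of either experiment did not overlap. The same held for Spry1, Spred1 and Spred2, which were not called. The share of all genes with such a separation was not counted, so these separations are not read as a property of the members. These calls depended on single libraries: 0 members were called without wild type 1, wild type 2 or knockout 4, and 38, 42 and 120 genes in all were then called in place of 895. The count of genes was 1838 without knockout 1 and 482 without knockout 3. The difference between genotypes was not found to depend on the experiment for any member (edgeR interaction term, adjusted p from 0.998 to 1), a test with few libraries behind it.

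Levels were compared between genes only per exon length, as TMM-scaled RPKM. Over both genotypes together Dusp6 led with a mean of 234 RPKM over the 6 libraries (201 to 288), followed by Dusp5 with 193 (87.7 to 270) and Spry2 with 107 (73 to 136). Spred1 (36.5), Spred2 (23.0), Etv4 (17.7), Dusp4 (13.6), Spry1 (11.1), Etv5 (7.10) and Spry4 (3.40 RPKM) came after. The ranges over libraries did not overlap between Spry2 and Spred1, Spred1 and Spred2, and Etv5 and Spry4, so these steps in the order exceeded the spread. All other neighbours overlapped, and the order was the same in TPM. The group means of the first pair differed in order. Dusp6 averaged 275 ± 18.2 RPKM in wild type and Dusp5 119 ± 44.5 (SD, n = 2), against 214 ± 16.4 and 230.5 ± 38.3 in knockout (SD, n = 4). Among the knockout libraries Dusp6 still led in knockout 1 and 2, and Dusp5 led in knockout 3 and 4. Dusp6 was above 98.6% of all tested genes by this measure and Spry4 above 37.5%. Only Dusp5 was counted over its coding part, and the coding share of the other gene models ran from 19.6% (Spry4) to 62.3% (Etv4).

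**Figure D3:**
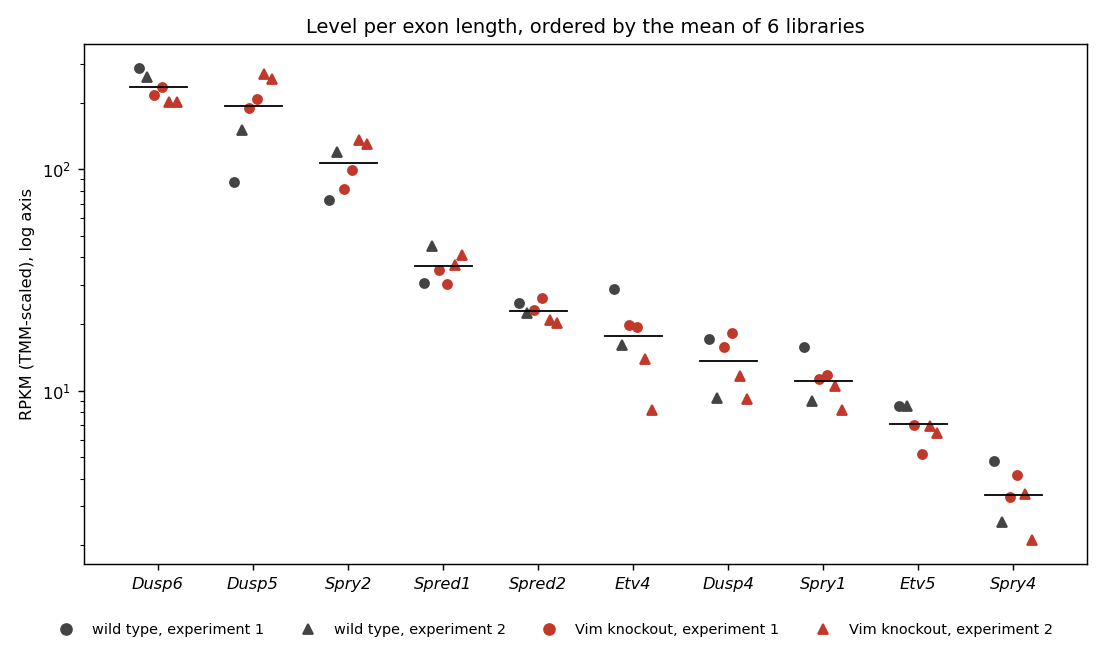
Level per exon length in TMM-scaled RPKM on a log axis for each gene and library, ordered by the mean of 6 libraries (line), with wild type in grey, knockout in red, circles for experiment 1 and triangles for experiment 2. Dusp6, Dusp5 and Spry2 lie at or above 73 RPKM in every library, and the other 7 genes at or below 44.8.

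The other genes of the pathway were taken from lists by role. Of 10 tested paralogs of the members 0 were called by genotype alone or with the block, 8 had log2 fold changes above 0, and the median was 0.14. Spred3, the SPRED gene with the lowest p, was at 15.5 and 16.6 CPM in wild type and 9.84, 10.1, 11.6 and 10.2 CPM in knockout. All 4 knockout libraries were below wild type, with a log2 fold change of -0.62 (SE 0.15 by edgeR, adjusted p = 0.256, or 0.0612 with the block). The next by p were Dusp10, with a log2 fold change of 0.30, and Dusp7, with 0.21.

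Growth factor ligands held the only call among the pathway lists outside the members. Of 16 tested, 0 were called by genotype alone and 1 with the block, where 1.56% of all genes were called. The gene that rose was Pdgfb, which encodes a PDGF chain. It was at 37.2 and 47.15 CPM in wild type and 84, 69.9, 72.35 and 75 CPM in knockout, with no overlap. Its log2 fold change was 0.84 (SE 0.14 by edgeR, adjusted p = 0.139, or 0.0136 with the block). The EGF family ligand genes Ereg and Nrg1 stood lower, Ereg at 266 and 448.5 CPM in wild type and 235, 102, 135 and 119 CPM in knockout (log2 fold change -1.27, edgeR adjusted p = 0.277), and Nrg1 at 414 ± 111 CPM (SD, n = 2) and 259 ± 55.6 CPM (SD, n = 4), with an edgeR adjusted p = 0.418. Every knockout library was below both wild-type libraries for both ligands, and neither was called with the block. The median of the list was 0.04.

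Receptor tyrosine kinase genes had a median log2 fold change of -0.01 over 16 tested, 8 above and 8 below 0, and 0 called in either fit. Fgfr2, a receptor for FGF7 and FGF10, was at 424 ± 141 CPM (SD, n = 2) and 635 ± 178 CPM (SD, n = 4), with a log2 fold change of 0.58 (edgeR adjusted p = 0.68, or 0.0906 with the block). Fgfr4 and Kit had log2 fold changes of -0.54 and -0.67. Egfr was at 274 ± 64.8 and 296 ± 27.7 CPM (SD, n = 2 and 4).

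The cascade itself, from adaptors to the kinases below ERK, had 22 tested genes, 0 called in either fit and a median of 0.07. Araf, a RAF kinase, was at 80.3 ± 7.75 and 62.2 ± 5.25 CPM and Rps6ka1, an RSK kinase below ERK, at 229 ± 14.8 and 185 ± 14.9 CPM (SD, n = 2 and 4), both with all knockout libraries lower (edgeR adjusted p = 0.391 and 0.507). Gab1, an adaptor, had a log2 fold change of 0.46.

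Other negative regulators (12 tested, median 0.01) and the transcription factors under ERK (9 tested, median 0.08) also had 0 calls in either fit. Their leading genes by p were Dab2ip, a RAS GTPase-activating protein (log2 fold change -0.37), Rasa3 (0.52) and Rasa2 (0.38), and Etv3 (0.20), Elk3 (-0.21) and Erf (0.14). Other ERK-induced genes had a median of -0.04 over 20, 9 above and 11 below 0, and 0 called in either fit. Maff, a small bZIP factor, was at 216 and 262 CPM in wild type and 301, 341, 333 and 328 CPM in knockout, with no overlap, and had a log2 fold change of 0.45 (SE 0.125 by edgeR, adjusted p = 0.317, or 0.0728 with the block). Junb (0.34) and Phlda1 (-0.24) came next. Fos averaged 3461 ± 178 CPM without the knockout and 3465 ± 873 CPM with it (SD, n = 2 and 4), and Egr1 at 1562 ± 498 and 1375 ± 406 CPM.

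**Figure D4:**
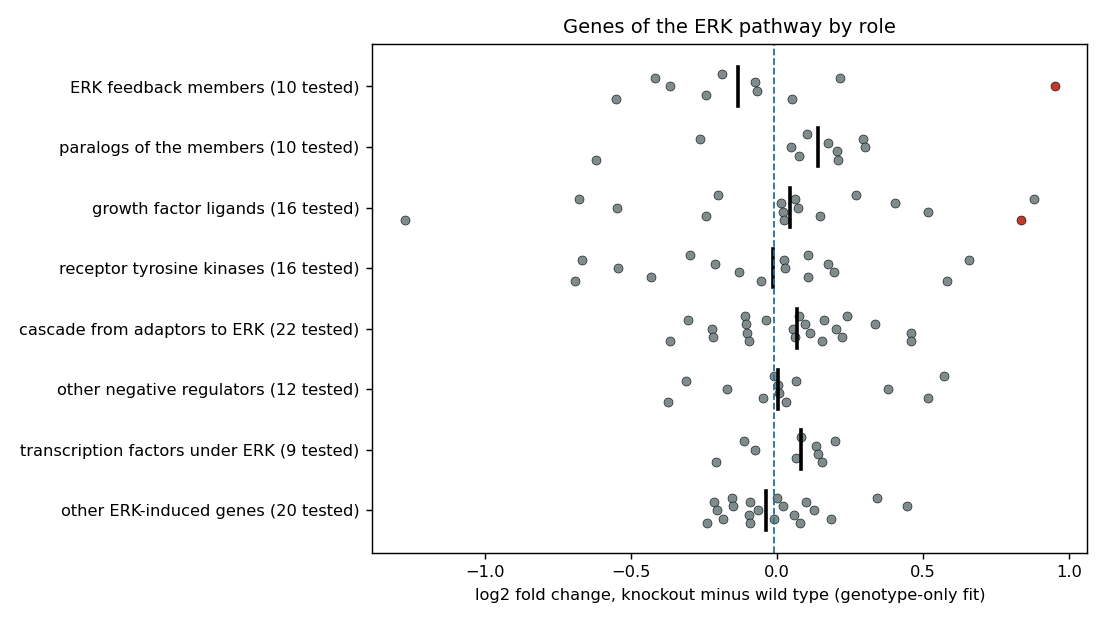
Log2 fold change (knockout minus wild type, genotype-only fit) of each tested gene in the feedback set and 7 other lists, with a black line at each list's median, a dashed line at the median of all genes (-0.01) and red points for genes called with the replicate block. The red points are Dusp5 (0.95) and Pdgfb (0.84), and the list medians lie between -0.13 and 0.14.

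The endothelial marker sum was higher in the wild-type libraries, as given above, in the direction of Dusp6, Etv4 and Etv5. Of the 10 endothelial markers 0 were called in either fit (Pecam1 edgeR adjusted p = 0.181, or 0.0843 with the block). All 10 had an unadjusted edgeR p under 0.05 in both fits, against 8.57% and 13.6% of all genes. Their median log2 fold change was -2.095. For 8 of them every knockout library was below both wild-type libraries, against 8.57% of all genes. Fewer endothelial cells and less RNA per cell cannot be told apart in pooled libraries. Wild type 1 had a higher endothelial sum than wild type 2 and was also the highest library for Dusp6, Etv4, Spry1 and Spry4. For Etv5 it was highest as well, but nearly level with wild type 2 (32.61 and 32.52 CPM). Without wild type 1 the log2 fold change by genotype alone was -0.28 for Dusp6 and -0.395 for Etv5. It was -0.057 for Etv4, 0.23 for Spry1 and 0.37 for Spry4. That fit set wild type 2, from experiment 2, against knockout libraries of both experiments. With the block and without wild type 1 the values were -0.36 for Dusp6, -0.33 for Etv5 and -0.525 for Etv4. Those of Spry1 and Spry4 were 0.071 and 0.135. The part of endothelial RNA in these values was not tested. Fibroblast markers, with 7 of 7 log2 fold changes below 0, summed to 136 to 155.5 CPM in wild type and 102 to 139 in knockout. Leukocyte markers summed to 110 to 140 and 80.2 to 123 CPM, nearly all of it Cd74, and pericyte markers to 31.7 to 50.8 and 29.1 to 42.1 CPM. Luminal markers summed to 1416 to 1562 CPM in wild type and 1418 to 1724 in knockout, mostly Krt8 and Krt18. Of these 9 genes 6 had log2 fold changes above 0, with a median of 0.21, and 0 were called. Prlr stood at 201% of its wild-type mean (edgeR adjusted p = 0.577, or 0.0547 with the block). Esr1 stood at 158% (edgeR adjusted p = 0.502, or 0.142 with the block). Every knockout library was above wild type for Esr1 and Krt18. The 3 luminal markers below 0 were Elf5 at 59.9%, Kit at 63.2% and Krt8 at 92.7% of the wild-type mean. The part of the marker genes in the members' values was not tested.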

How the data were processed

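RNA of sorted basal cells was made into libraries with a stranded TruSeq mRNA kit, per the labels' protocols. The deposited values are raw counts of reads per gene, made by the authors with featureCounts 1.5.1 over exons of the UCSC mm10 annotation with strand option 2, per the file headers. The submitters' processing notes also name bcl2fastq 2.17, STAR 2.5.2b and Subread 1.5.1. Of 23337 genes 13925 passed edgeR's filterByExpr and 9412 were set aside; all 10 members passed. Counts were scaled by TMM and tested by edgeR 4.0.16 (glmQLFit, glmQLFTest, R 4.3.3) with genotype as the term, over all tested genes, with Benjamini-Hochberg adjustment at 0.05. The SE is the log2 fold change divided by the square root of F, and intervals are 95% and unadjusted. Alternatives included the experiment as a replicate block, DESeq2 1.42.0, limma-voom (limma 3.58.1), other scalings and filters, and leaving out each library.

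The labels state 2 independent experiments, and a day code found in the file names was taken to mark them. Deviations from the genotype means correlated at 0.316, 0.286, 0.251 and 0.414 for pairs of 1 wild-type and 1 knockout library within an experiment. With 2 wild-type libraries these deviations mirror each other. The numbers in the titles did not pair the libraries (0.316 for number 1 and -0.286 for number 2).

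The members and lists were chosen with earlier results of these data known. Other genes were named as the 3 with the smallest p in each list. Egfr, Fos and Egr1 were named after their values were seen. The luminal markers named singly, other than Krt8, were outside this rule. Libraries are separate pools of mice, so p-values measure the spread between pools. By genotype alone this spread includes the difference between the experiments, and with the block it is the spread within them. Promoter windows came from RefSeq (GRCm38.p6).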

Additional observations from a re-analysis of the deposited data

How the results depend on the processing

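Depth was not varied, and each value rests on 2 wild-type libraries. By genotype alone edgeR called 11 genes, DESeq2 265 and the fit with the replicate block 217, and the members called were 0, 1 and 1. Other scalings, filters, limma-voom and a block by title number (without knockout 3 and 4) gave 10 to 14 genes and 0 members. Leaving out 1 library gave 3 to 15 genes (4 without wild type 1, 3 without knockout 3, 5 without knockout 2 or knockout 4) and a members' median between -0.37 and -0.016. Dusp5, Dusp6, Etv4 and Etv5 kept their sign under all of these. A replicate block by title number, which also leaves out knockout 3 and 4, turned Spry2 to -0.057, Spry4 to 0.076 and Spred2 to 0.06. Experiment 1 alone turned Dusp4 to -0.016 and Spred1 to 0.082, and experiment 2 alone Spry1 to 0.041 and Spry4 to 0.073. Without 1 library the ranges were -0.32 to 0.58 for Dusp4, -0.58 to 0.23 for Spry1, -0.081 to 0.62 for Spry2, -0.57 to 0.37 for Spry4, -0.30 to 0.22 for Spred1 and -0.135 to 0.024 for Spred2. The leave-one-out values that follow were added after seeing the data. With the block and without 1 library, 4 to 940 genes and 0 to 2 members were called, with ranges of -0.014 to 0.19 for Dusp4, -0.44 to 0.071 for Spry1, -0.37 to 0.135 for Spry4 and -0.18 to 0.088 for Spred1. The experiment term without 1 library called 38 to 1838 genes and 0 to 6 members, and its Etv5 difference ran from -0.038 to 0.20. The cause was not tested.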

Other observations

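The mean of the 10 members' log2 CPM, each centred on its own mean over the 6 libraries, was compared with 10705 other genes. The closest by Pearson correlation were Ttc28 (0.995), Plcl2 (0.991), Cand2 (0.985), Abcb6 (0.973) and Ints10 (0.972). These are descriptions over only 6 libraries, which differ in depth, experiment and genotype. The genes named are the highest of 10705, picked from these same values, and no relation to the members was tested.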
